A study of Homo sapiens with 8 samples.

Results

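The genes of the Hippo kinase core were followed in HCT116 cells, a human colorectal cancer line, after knockdown of the transcription factor HHEX or of the transcriptional complex that the Hippo pathway controls. Members were chosen by name as the kinases *LATS1*, *LATS2*, *STK3* (MST2) and *STK4* (MST1), their cofactors *SAV1*, *MOB1A* and *MOB1B*, and the upstream activators *NF2*, *MAP4K4* and *WWC1*, which are 10 of the 20030 genes in each library. RNA was sequenced in 8 libraries, 2 after transfection of the control siRNA (siNC), 3 after siRNAs against *HHEX* (siHHEX), 2 after siRNAs against *YAP1* and *WWTR1*, the gene for TAZ (siYAP/TAZ), and 1 after siRNAs against *TEAD1* to *TEAD4* (siTEAD1/2/3/4). The labels and methods give the libraries of siHHEX and of siYAP/TAZ the same numbers as their siRNAs, so libraries of a group also differ in siRNA. The study's reporting summary states independent triplicates for its experiments in general. The labels do not say whether the libraries of a group came from separate experiments. The p values below therefore measure the spread between these libraries, and a change that belonged to a single siRNA rather than to its target was not tested.

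In the Hippo pathway, MST1 and MST2, held together with SAV1, phosphorylate and activate LATS1 and LATS2 with their MOB1 cofactors. LATS1 and LATS2 phosphorylate the coactivators YAP and TAZ, which keeps them out of the nucleus and away from the TEAD transcription factors. NF2 (merlin) and WWC1 (KIBRA) recruit the kinases at the membrane, MAP4K4 can activate LATS1 and LATS2 in parallel with MST1 and MST2, and *LATS2* is itself known as a transcriptional target of YAP and TEAD, a negative feedback.

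Levels are the deposited FPKM values, fragments scaled by the length of the gene and the total of the library, so levels of different genes can be compared. They summed to between 331663 and 383423 FPKM per library, and judged from the steps between low values, the libraries had 0.946 to 1.07 times the depth of siNC 1, but the number of reads is unknown. Changes are differences on the log2(FPKM + 1) scale, on which changes of weakly expressed genes come out too small. They were tested with limma in 1 fit of the 8 libraries over the 10677 genes that reached 1 FPKM in 2 or more libraries, and a gene is said to have risen or fallen where the Benjamini-Hochberg adjusted p over all tested genes was below 0.05. All 10 members passed the filter, with values of at least 1.32 FPKM in every library.

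Of 8 markers of colorectal epithelium, 5 reached the level for testing, *EPCAM* with 116 to 174 FPKM, *KRT8* with 897 to 1760, *KRT18* with 376 to 917, *KRT19* with 505 to 975 and *CDH1* with 8.16 to 15.7 FPKM. The differentiation markers *VIL1*, *CDX1* and *LGALS4* were at or near 0, with at most 0.132 FPKM in any library. Some epithelial markers moved with the knockdowns. In siYAP/TAZ *KRT18* fell from 900 and 917 to 376 and 404 FPKM (log2 change -1.22, limma adjusted p = 0.000861) and *KRT8* from 1590 and 1710 to 898 and 897 FPKM (-0.88, 0.00227). In siHHEX *EPCAM* (-0.38, limma adjusted p = 0.0289) and *KRT18* (-0.29, 0.0348) fell. With the GC and length correction the siHHEX call of *EPCAM* was lost (-0.27, limma adjusted p = 0.105). *KRT18* was then at -0.69 (0.00488), and *KRT8* was called as well (-0.35, 0.0481). The part of these markers in the results was not tested. Of the markers of other cell types, 1 of 6 for fibroblasts (*COL1A1*), 1 of 5 for leukocytes (*CD68*) and 0 of 3 for endothelial cells reached the level for testing. *CDH5*, which marks endothelium, was at most 0.00837 FPKM. *CD68* was at 3.72 and 3.87 FPKM in siNC and at 7.33 and 5.28 FPKM in siYAP/TAZ, where it was not called (log2 change 0.59, limma adjusted p = 0.0775) except with the GC and length correction (0.0462). *COL1A1* was at 0.915 and 0.821 FPKM in siNC and at 1.19 and 2.04 FPKM in siYAP/TAZ.

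The libraries siHHEX 3 and siYAP/TAZ 2 stood apart by traces of fibroblast and leukocyte transcripts. *COL1A2* was at 0.124 and 0.273 FPKM in them, *COL3A1* at 0.235 and 0.283 and *PTPRC* at 0.101 and 0.0786 FPKM, against at most 0.0407 FPKM for any of these in the other libraries. The part of these transcripts in the results was not tested. The counts of members without each of these libraries are given with the comparisons, and without siHHEX 3 the siHHEX log2 change was -0.88 for *LATS2* and -0.86 for *SAV1*.

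Of the siRNA targets, all but *TEAD3* had lower values in every library named for them. *HHEX* was at 8.60 and 9.06 FPKM in siNC and at 3.25, 3.54 and 1.85 FPKM in siHHEX 1, 2 and 3. *WWTR1* was at 6.80 and 6.72 FPKM in siNC and at 2.64 and 2.58 FPKM in siYAP/TAZ. *YAP1* had 20.2 and 19.7 FPKM in siNC and was low in both siYAP/TAZ libraries, with 6.90 and 8.39 FPKM. The TEAD genes were lowered unequally in the single siTEAD1/2/3/4 library. *TEAD4* was at 20.3 and 21.3 FPKM in siNC and at 5.56 FPKM there, and *TEAD1* at 18.3 and 19.0 FPKM in siNC and at 9.02 FPKM there. *TEAD2* went from 4.10 and 3.47 to 2.73 FPKM, while *TEAD3*, with 7.36 and 6.99 FPKM in siNC, was higher at 9.08 FPKM.

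Several of these genes also moved in the other knockdowns. *YAP1* had 5.77, 17.4 and 6.93 FPKM in siHHEX 1, 2 and 3, so that siHHEX 2 stood close to siNC for *YAP1* although its *HHEX* level was low. *TEAD1* fell in siHHEX to 6.99, 10.2 and 5.30 FPKM (log2 change -1.25, limma adjusted p = 0.00641), and *TEAD2* rose to 6.5, 8.02 and 7.18 FPKM (0.78, 0.00709). With the correction for GC content and length that is described below, *TEAD1* stayed called, and *YAP1* (-0.77, limma adjusted p = 0.172) and *TEAD2* (0.45, 0.099) did not. *TEAD4*, not called in siHHEX before it (-0.11, limma adjusted p = 0.503), was lower there after it (-0.52, 0.0381). *TEAD4* fell in siYAP/TAZ to 12.5 and 13.6 FPKM (log2 change -0.63, limma adjusted p = 0.025). *HHEX* had 4.80 and 7.12 FPKM in siYAP/TAZ, both below siNC, but was not called (-0.52, limma adjusted p = 0.196). The part of these changes in those of the core genes was not tested. In bulk RNA, a lower level in every cell and a loss in only some of the cells cannot be told apart.

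In siNC, the cofactor genes *MOB1A* and *SAV1* had the highest levels and the kinase genes *LATS2*, *LATS1* and *STK3* the lowest. *MOB1A* led with 37.0 ± 0.340 FPKM (SD, n = 2), followed by *SAV1* with 19.4 ± 0.128, *NF2* with 15.5 ± 0.0721, *WWC1* with 12.1 ± 0.197 and *MAP4K4* with 10 ± 0.420 FPKM. *STK4* had 7.81 ± 0.400 FPKM, *MOB1B* 4.22 ± 0.235, *LATS2* 3.68 ± 0.0389, *LATS1* 3.04 ± 0.255 and *STK3* 2.52 ± 0.187 FPKM. The values of the pair of siNC libraries did not overlap between any neighbours in this order. Within the tested genes, *MOB1A* stood at the 85.7th percentile of the siNC level, *LATS2* at the 31.6th and *STK3* at the 22.1st.

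**Figure D1:**
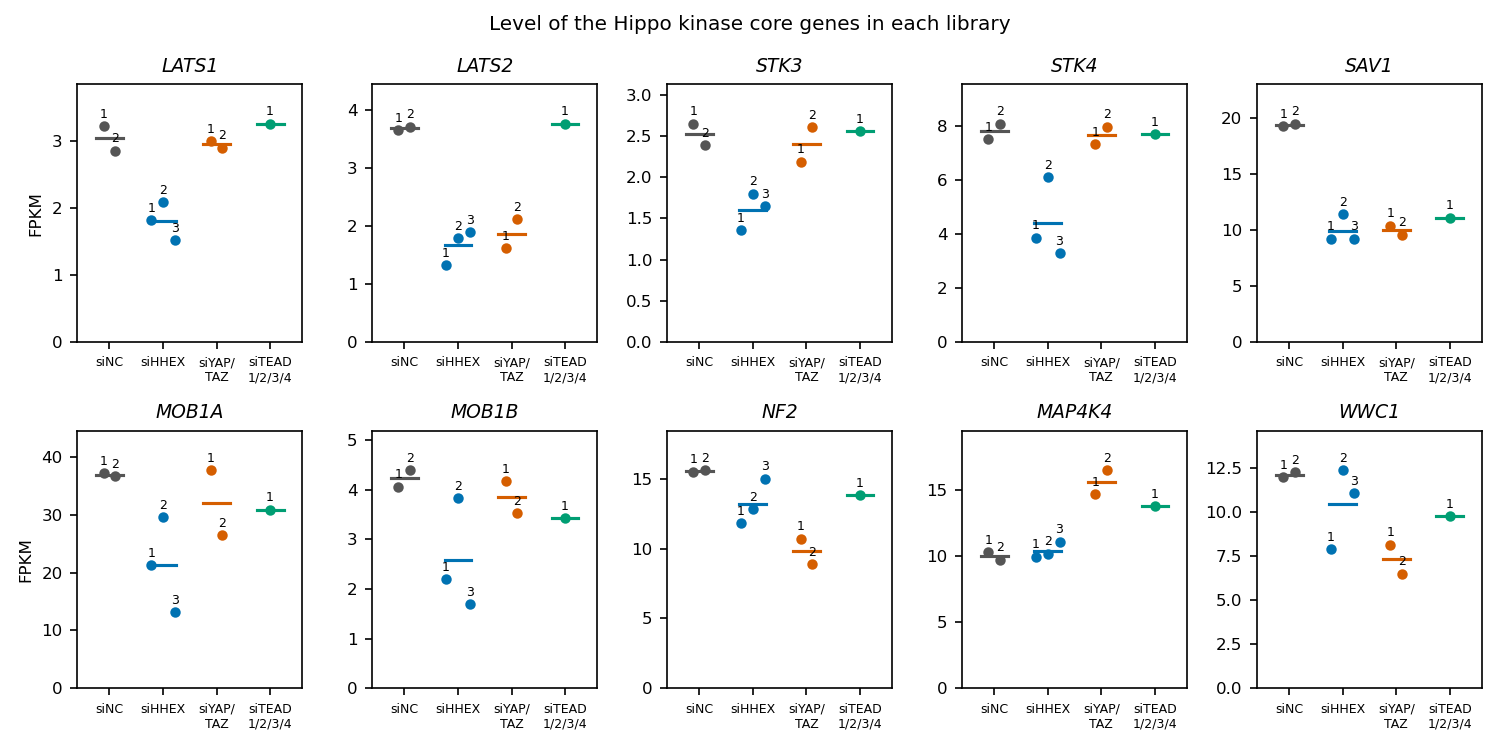
FPKM of each of the 10 genes (vertical axes, linear from 0) in the 8 libraries grouped by siRNA (horizontal axes); points are libraries with their replicate number and bars are group means. *LATS2* and *SAV1* lie below siNC in every siHHEX and siYAP/TAZ library, *LATS1*, *STK3* and *STK4* only in siHHEX, and *MAP4K4* lies above siNC in siYAP/TAZ, with 14.7 and 16.5 FPKM.

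Knockdown of *HHEX* asks which of these genes depend on the factor that the study placed in the YAP-TEAD complex. Of the 10 genes, 6 fell in siHHEX, *LATS1*, *LATS2*, *STK3*, *STK4*, *SAV1* and *MOB1A*, and 0 rose. Among all tested genes, 16.9% fell and 16% rose. The median change of the members was -0.56 on the log2 scale, against -0.006 over all tested genes. In 8 of 10 members every siHHEX library lay below both siNC libraries, as for 33.8% of all tested genes, and the exceptions were *MAP4K4* and *WWC1*. Leaving out siNC 1 or siNC 2 kept the size of these changes but left 0 members called, with 19 and 27 genes called in all. Leaving out siHHEX 1 or siHHEX 3 left 3 members called, where 9.08% and 11.5% of all tested genes were lower (2109 and 2514 called in all). Leaving out siHHEX 2 gave 7 members, where 24.9% of all tested genes were lower (4839 called in all). With each library's trend with transcript GC content and length taken off, 2 of the 6, *LATS2* and *SAV1*, stayed called.

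*LATS2* encodes the kinase that closes the feedback loop. It lies on chromosome 13 of GRCh38 from 20973036 to 21061586 on the minus strand. *LATS2* had 3.65 and 3.71 FPKM in siNC and 1.32, 1.79 and 1.89 FPKM in siHHEX, and all siHHEX libraries were low, siHHEX 2 included. The mean was 45.2% of siNC and the log2 change -0.82 (SE 0.144, adjusted p = 0.00719 from limma). In siYAP/TAZ *LATS2* had 1.61 and 2.11 FPKM, again with no overlap, a log2 change of -0.72 (SE 0.158, adjusted p = 0.0298 from limma). That call was lost when either siYAP/TAZ library was left out (adjusted p = 0.0876 without siYAP/TAZ 1 and 0.0843 without siYAP/TAZ 2 from limma), and without siNC 1 or siNC 2 (0.21 in both cases). In the siTEAD1/2/3/4 library, *LATS2* was at 3.76 FPKM, a log2 difference of 0.024, which was -0.038 with median scaling and -0.027 with the GC and length correction. That library had no replicate, and its *TEAD3* level was not lowered.

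*LATS1*, on chromosome 6 from 149658153 to 149718105, is the paralog of *LATS2*. Its values were 3.22 and 2.86 FPKM in siNC, 1.82, 2.09 and 1.52 FPKM in siHHEX, 3.00 and 2.90 FPKM in siYAP/TAZ and 3.26 FPKM in siTEAD1/2/3/4. Only the siHHEX libraries were low. The log2 change was -0.53 in siHHEX (SE 0.133, limma adjusted p = 0.0183) and -0.029 in siYAP/TAZ (95% interval -0.36 to 0.30, adjusted p = 0.921 from limma). *LATS2* contributed 53.2% and 56.5% of the summed *LATS1* and *LATS2* FPKM in siNC, 34.9% and 42.1% in siYAP/TAZ, and 42.1%, 46.1% and 55.5% in siHHEX. The summed level of both kinases was 6.87 and 6.57 FPKM in siNC, 3.14, 3.88 and 3.40 FPKM in siHHEX, 4.62 and 5.01 FPKM in siYAP/TAZ and 7.02 FPKM in siTEAD1/2/3/4. Both knockdowns with replicates thus had less LATS transcript in every library than either siNC library, with lower *LATS1* as well in siHHEX. The siHHEX change of *LATS1* shrank to -0.079 and its call was lost (limma adjusted p = 0.674) after the correction for GC and length described below.

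*SAV1*, on chromosome 14 from 50632058 to 50668306 on the minus strand, encodes the scaffold that joins MST1 and MST2 to LATS1 and LATS2. It had 19.3 and 19.5 FPKM in siNC and 9.21, 11.4 and 9.22 FPKM in siHHEX. In siYAP/TAZ it had 10.4 and 9.58 FPKM, and in siTEAD1/2/3/4 11.1 FPKM. Every knockdown library was below both siNC libraries. The log2 change was -0.90 in siHHEX (SE 0.131, limma adjusted p = 0.00461) and -0.89 in siYAP/TAZ (SE 0.144, adjusted p = 0.0115 from limma). The siTEAD1/2/3/4 level was 57.5% of the siNC mean, a log2 difference of -0.75 with no replicate check. *SAV1* was the one member past 1.5-fold and outside the siNC values in siTEAD1/2/3/4, where 2.15% of the tested genes were lower by that rule. Its siYAP/TAZ adjusted p from limma was 0.0805 without siYAP/TAZ 2, and without siNC 1 or siNC 2 it was 0.126 and 0.128, with 0.075 and 0.0669 in siHHEX. Over its length 14.2% of the *SAV1* transcript lies across exons of *ATL1* on the opposite strand, and whether the counting used strand is not given in the sources used here. Of its stretches of 50 bases, 21.2% also occur in another gene, 12.8% in *ATL1* and 8.44% in ENSG00000249741. *ATL1* itself was low, between 0.513 and 1.58 FPKM, and higher in siYAP/TAZ (1.19 and 1.58 FPKM) than in siNC (0.582 and 0.806 FPKM).

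Since *LATS2* and *SAV1* were lower in both siHHEX and siYAP/TAZ, the 250 bases before their RefSeq start sites (GRCh38.p14, minus strand, 5′ to 3′) are shown.
LATS2, chr13:21061587-21061836: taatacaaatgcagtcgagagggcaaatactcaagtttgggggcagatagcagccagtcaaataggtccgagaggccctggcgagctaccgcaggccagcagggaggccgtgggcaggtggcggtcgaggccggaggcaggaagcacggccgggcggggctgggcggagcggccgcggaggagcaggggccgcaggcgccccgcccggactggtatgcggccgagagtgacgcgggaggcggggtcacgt
SAV1, chr14:50668307-50668556: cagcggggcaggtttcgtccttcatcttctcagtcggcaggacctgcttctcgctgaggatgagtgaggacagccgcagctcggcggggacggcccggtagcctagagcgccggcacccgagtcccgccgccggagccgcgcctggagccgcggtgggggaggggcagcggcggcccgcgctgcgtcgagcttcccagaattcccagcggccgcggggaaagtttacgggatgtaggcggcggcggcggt
The core TEAD word CATTCC and its reverse complement GGAATG were searched in these windows. Neither word occurred in the 13 windows searched, which belong to 9 members and include those shown. *STK3* was not among these 9 and was not searched. Of 35116 windows of this length over all genes, 11.9% held at least 1 of the words. The GC content was 69.6% before *LATS2* and 72% before *SAV1*, against a median of 58% over all windows. In the *SAV1* window, 152 bases lie in an exon of another gene, ENSG00000289866. TEAD sites can lie far from a start site, and these windows say nothing of them. The study reports *LATS2* among the genes bound by both TEAD4 and HHEX in these cells, from chromatin immunoprecipitation data that were not analysed here.

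*STK4*, on chromosome 20 from 44966494 to 45080021, and *STK3* encode the upstream kinases MST1 and MST2. *STK4* had 7.53 and 8.09 FPKM in siNC and 3.86, 6.10 and 3.28 FPKM in siHHEX, with siHHEX 2 closest to siNC. The groups did not overlap, and the log2 change was -0.74 (SE 0.198, adjusted p = 0.023 from limma). *STK3* had 2.65 and 2.39 FPKM in siNC and 1.36, 1.80 and 1.65 FPKM in siHHEX, a log2 change of -0.44 (SE 0.132, adjusted p = 0.0341 from limma). In siYAP/TAZ both kinases overlapped siNC, with 7.33 and 7.98 FPKM for *STK4* and 2.19 and 2.61 FPKM for *STK3*. The siYAP/TAZ log2 change of *STK4* was -0.026 (95% interval -0.51 to 0.46) and that of *STK3* -0.052. In siTEAD1/2/3/4 they were at 7.71 and 2.56 FPKM, inside the siNC values. Both siHHEX calls were lost without siHHEX 1, without siHHEX 3, and with the GC and length correction, at -0.41 for *STK4* (limma adjusted p = 0.144) and -0.039 for *STK3* (0.869).

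*MOB1A* and *MOB1B* encode the near-identical activating subunits of LATS1 and LATS2, on chromosome 2 from 74152528 to 74178898 and on chromosome 4 from 70902326 to 71022449. Reads of such paralogs could be mixed, so the first 60 of the 648 coding bases are shown, from the GENCODE transcripts, with the bases that differ in capitals.
MOB1A: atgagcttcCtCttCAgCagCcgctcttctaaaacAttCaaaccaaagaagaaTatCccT
MOB1B: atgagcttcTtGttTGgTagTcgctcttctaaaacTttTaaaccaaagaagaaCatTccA
The pair differed at 132 of the 648 coding positions, an identity of 79.6%, and at 11 of the 60 shown. Of the stretches of 50 bases in the *MOB1B* transcript, 0.09% occurred in another gene, all of them in *SUN3* rather than *MOB1A*. *MOB1A* was the most abundant member, with 37.2 and 36.7 FPKM in siNC and 21.3, 29.6 and 13.2 FPKM in siHHEX. *MOB1B* had 4.06 and 4.39 FPKM in siNC and 2.2, 3.83 and 1.69 FPKM in siHHEX. Both were lowest in siHHEX 3 and closest to siNC in siHHEX 2. *MOB1A* had a log2 change of -0.83 (SE 0.278, adjusted p = 0.0459 from limma), which just passed. Its call was lost when only its 5 libraries were fitted (limma adjusted p = 0.0532) and with the GC and length correction (-0.36, 0.355). Without siHHEX 3 the change shrank to -0.54 and was not called (limma adjusted p = 0.08). The call was also lost without siHHEX 1 (-0.87, limma adjusted p = 0.0913) and with a block for the replicate number (-0.54, 0.098). It was lost as well without the filter on low values (0.151). *MOB1B* had a log2 change of -0.59 (95% interval -1.09 to -0.095, adjusted p = 0.0645 from limma) and was not called. In siYAP/TAZ *MOB1A* had 37.7 and 26.5 FPKM, 1 library at the siNC level and 1 below it, and *MOB1B* had 4.17 and 3.52 FPKM. In siTEAD1/2/3/4 they were at 30.9 and 3.43 FPKM, both below siNC by less than 1.5-fold. *MOB1B* kept between 9.4% and 11.7% of the summed MOB1 level in all 8 libraries.

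Knockdown of *YAP1* and *WWTR1* asks which core genes depend on the coactivators that the core restrains. In siYAP/TAZ, 3 members fell (*LATS2*, *SAV1* and *NF2*) and 1 rose (*MAP4K4*), where 2.13% of the tested genes fell and 6.15% rose. The median change of the members was -0.16 on the log2 scale, against 0.082 over all tested genes. In 4 members, *LATS2*, *SAV1*, *NF2* and *WWC1*, both siYAP/TAZ libraries lay below both siNC libraries, as for 24.8% of all tested genes. Leaving out siNC 1, siNC 2 or siYAP/TAZ 2 left 0 members called, with 22, 15 and 92 genes called in all, and leaving out siYAP/TAZ 1 left 3.

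*NF2*, the gene for merlin, lies on chromosome 22 from 29603556 to 29698598. It had 15.5 and 15.6 FPKM in siNC and 10.7 and 8.90 FPKM in siYAP/TAZ, with no overlap. The log2 change was -0.62 (SE 0.152, adjusted p = 0.0397 from limma). Its siHHEX values of 11.8, 12.8 and 15 FPKM all lay below siNC, but by little in siHHEX 3, and the log2 change of -0.23 did not pass (adjusted p = 0.22 from limma). *WWC1*, on chromosome 5 from 168291645 to 168472303, encodes the partner of merlin at the membrane. *WWC1* had 12.0 and 12.3 FPKM in siNC and 8.17 and 6.51 FPKM in siYAP/TAZ, both low, a log2 change of -0.66 that was not called (SE 0.199, adjusted p = 0.0696 from limma). Fitted on these 4 libraries only, *WWC1* was called (limma, adjusted p = 0.0289). Its siHHEX values were scattered, with 7.90, 12.4 and 11.1 FPKM, siHHEX 2 being above both siNC libraries. In siTEAD1/2/3/4 *NF2* was at 13.8 and *WWC1* at 9.80 FPKM, below siNC by less than 1.5-fold.

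*MAP4K4*, on chromosome 2 from 101696850 to 101894690, encodes the Ste20-type kinase that can activate LATS1 and LATS2 beside MST1 and MST2. It was the member that rose. It had 10.3 and 9.73 FPKM in siNC, 14.7 and 16.5 FPKM in siYAP/TAZ and 13.8 FPKM in siTEAD1/2/3/4. The siHHEX values of 9.97, 10.2 and 11.1 FPKM overlapped siNC. The log2 change was 0.59 in siYAP/TAZ (SE 0.131, limma adjusted p = 0.0301) and 0.051 in siHHEX (95% interval -0.22 to 0.32). Scaling each library to the same median left *MAP4K4* with 0.49 in siYAP/TAZ (adjusted p = 0.0538 from limma). That scaling lowered the median siYAP/TAZ change of all tested genes by 0.10 on the log2 scale, and its calls over all genes were 49.1% lower, in place of 25.7%. Its siTEAD1/2/3/4 level was 137.4% of the siNC mean, short of 1.5-fold.

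**Figure D2:**
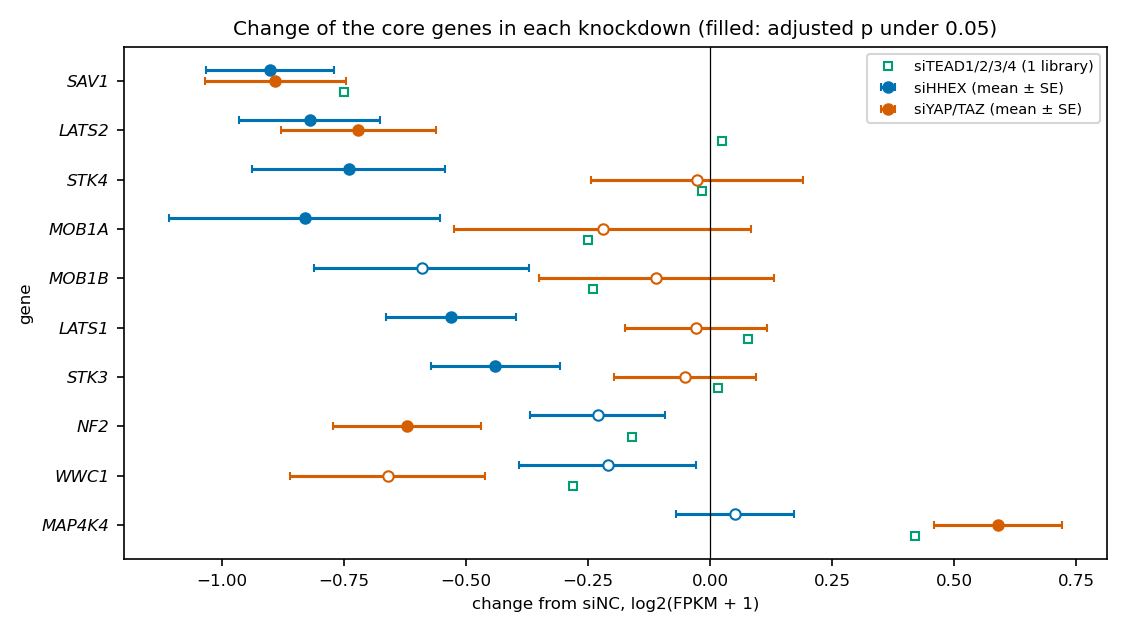
Change of each gene from siNC on the log2(FPKM + 1) scale (horizontal axis), as limma estimate ± SE for siHHEX (blue) and siYAP/TAZ (orange) and as the single value of siTEAD1/2/3/4 (green squares); filled circles have an adjusted p below 0.05. *SAV1* lies left of 0 in all 3 knockdowns, *LATS2* in siHHEX and siYAP/TAZ (-0.82 and -0.72), and *MAP4K4* lies right of 0 in siYAP/TAZ (0.59).

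Since siHHEX and siYAP/TAZ share the siNC libraries, they were also compared with each other. *LATS1*, *STK3*, *STK4* and *MAP4K4* were lower in siHHEX than in siYAP/TAZ, and *NF2* was higher, 5 of the 10 members, where 25.9% of the tested genes were lower and 13.5% higher. The log2 difference was -0.50 for *LATS1* (adjusted p = 0.0183 from limma), -0.71 for *STK4* (0.0217) and -0.38 for *STK3* (0.0449). It was -0.54 for *MAP4K4* (adjusted p = 0.0101 from limma) and 0.39 for *NF2* (0.0481). For *SAV1* the difference was -0.011 with a 95% interval of -0.31 to 0.28, and for *LATS2* -0.10 with an interval of -0.43 to 0.22, so both intervals allow moderate differences either way. *MOB1A* (-0.61, adjusted p = 0.104 from limma), *MOB1B* (-0.48, 0.108) and *WWC1* (0.45, 0.0764) did not pass. Cell-type markers moved here too, with *KRT8* (0.91, limma adjusted p = 0.00237), *KRT18* (0.93, 0.00237) and *KRT19* (0.58, 0.0163) higher in siHHEX. *CD68* was lower (-0.49, limma adjusted p = 0.0471). Of these calls, that of *KRT19* was lost with the GC and length correction (0.11, 0.636). The part of these markers was not tested. Scaling to the same median raised the median difference of all tested genes by 0.11 and the calls became 47.5% lower in place of 65.8%. With it *STK3* was lost (adjusted p = 0.109 from limma) and *WWC1* was called (0.0356). The comparison also rested on single libraries, with 1 member called without siYAP/TAZ 1, 0 without siYAP/TAZ 2, 3 without siHHEX 3, 4 without siHHEX 1 and 7 without siHHEX 2. Over all tested genes, 3266 were called without siHHEX 3, 2964 without siHHEX 1 and 5161 without siHHEX 2. With the GC and length correction 0 members were called, and *LATS1*, for example, was at -0.015.

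The members also differ in base composition, and the siHHEX libraries changed with it. Over all tested genes, a description since genes are not independent of each other, the change from the siNC mean correlated with the GC content of the transcript in siHHEX 1, 2 and 3 (Spearman's rho 0.679, 0.599 and 0.755). It was 0.06 and -0.052 in siYAP/TAZ, 0.298 in siTEAD1/2/3/4 and 0.212 in size between the siNC libraries. GC-poor genes tended to have lower values in every siHHEX library, and 6 members have a GC content under 45%. Among the 10 members alone, Pearson's r between GC content and change was 0.2, 0.05 and 0.65 in siHHEX 1, 2 and 3, so within the core the relation was weak in siHHEX 1 and 2. *MOB1B* has a GC content of 34.1%, *MOB1A* 37.3%, *STK3* 38.4%, *LATS1* 39%, *SAV1* 42.5% and *STK4* 43.1%, against a median of 49.1% over the tested genes. *MAP4K4* has 47%, *LATS2* 51.8%, *WWC1* 54.4% and *NF2* 55.6%. The siHHEX changes of these 6 members ran from -0.90 to -0.44, and those of the other 4 from -0.82 for *LATS2* to 0.051 for *MAP4K4*. The siHHEX 2 library, with the lowest rho of the siHHEX libraries and a *YAP1* level near siNC, also had the smallest median member difference from siNC, -0.31 against -0.64 in siHHEX 1 and -0.69 in siHHEX 3, and the part of either in the result was not tested.

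Taking the trend with GC content and length off each library left *LATS2* and *SAV1* lower in siHHEX. *LATS2* kept its size, with a log2 change of -0.86 (adjusted p = 0.0186 from limma), and *SAV1* was at -0.61 (adjusted p = 0.0202 from limma). The other 4 calls, *STK4*, *MOB1A*, *LATS1* and *STK3*, were lost, with the values given above. *MOB1B* was at -0.059 (adjusted p = 0.844 from limma). Other members moved away from 0 without a call. *NF2* went from -0.23 to -0.39 (limma adjusted p = 0.0764), *WWC1* from -0.21 to -0.34 (0.253) and *MAP4K4* from 0.051 to 0.21 (0.289). After the correction 2.99% of the tested genes were lower and 3.15% higher in siHHEX. With a block for the replicate number added to the correction, *LATS2* stayed called in siHHEX (-0.91, limma adjusted p = 0.0387). The call of *SAV1* was lost there (-0.61, limma adjusted p = 0.0699). In siYAP/TAZ the correction moved the members little, and *LATS2*, *SAV1*, *NF2* and *WWC1* were lower and *MAP4K4* higher, where 3.29% of the tested genes were lower and 9.23% higher. *WWC1* was then at -0.70 (adjusted p = 0.0462 from limma). Between siHHEX and siYAP/TAZ, 0 of the 10 members were called after the correction, where 6.56% of the tested genes were lower and 2.3% higher. The correction takes off any change that follows GC content, technical or not, and whether the trend comes from the libraries or from the cells was not tested.

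**Figure D3:**
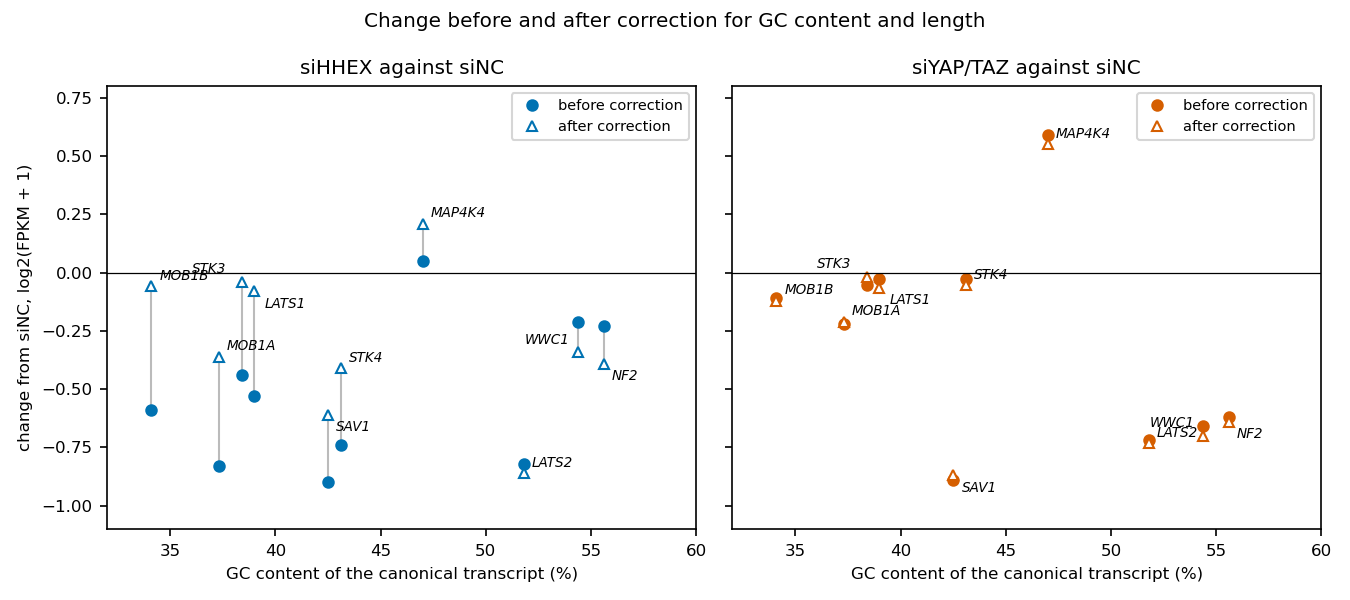
Change of each member from siNC on the log2(FPKM + 1) scale (vertical axes) against the GC content of its transcript in percent (horizontal axes), before (filled circles) and after (open triangles) the trend with GC content and length was taken off, in siHHEX (left) and siYAP/TAZ (right). The GC-poor members move up toward 0 in siHHEX, *LATS1* from -0.53 to -0.079, while *LATS2* stays at -0.82 and -0.86. *NF2* and *WWC1* move away from 0 there, *NF2* from -0.23 to -0.39, and no member moves far in siYAP/TAZ.

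The members also varied among themselves across the 8 libraries. Pearson's r on the log2(FPKM + 1) scale, over 8 libraries that share their groups and given as a description, was highest for *MOB1A* and *MOB1B* (0.963), *LATS1* and *STK4* (0.943) and *STK4* and *MOB1B* (0.932) among the 45 pairs. *LATS2* and *SAV1* had 0.769, and *NF2* and *WWC1* 0.891. *MAP4K4* ran against *NF2* (-0.737) and *WWC1* (-0.732). The genes most like *SAV1* were *EIF3J* (0.991), *CRIM1* (0.982) and *CCND1* (0.981), and *CCND1*, the gene for cyclin D1, went from 420 and 441 FPKM in siNC to between 97.6 and 174 FPKM in the knockdowns. For *LATS2* they were *SNRNP35* (0.964), *AURKA* (0.959) and *SMAD7* (0.958). For *MAP4K4* they were *LTBP4* (0.998), *LAMB1* (0.993) and *ETV6* (0.99), and for *NF2* *PTPN1* (0.989). *LATS1* was most like *SENP1* (0.994), *STK3* like *ATAD2* (0.989), *STK4* like *ZMYM1* (0.995) and *MOB1A* like *RABEP1* (0.994).

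Around the core, 85 further genes in 6 lists were examined, and 78 of them were tested. In siHHEX 28 of these fell and 9 rose (35.9% and 11.5%), and in siYAP/TAZ 3 fell and 2 rose (3.8% and 2.6%), beside the shares of all genes given above. With the GC content and length trend taken off, 6 of the 78 were lower and 1 was higher in siHHEX, and 5 were lower and 2 higher in siYAP/TAZ.

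The kinases related to MST1 and MST2 did not follow 1 direction. Of 11 tested, 4 fell in siHHEX (*STK26*, *MAP4K3*, *MAP4K5* and *TAOK1*) and 2 rose (*STK25* and *MAP4K2*). *STK25* went from 13.5 and 12.5 FPKM in siNC to 20.9, 24.4 and 22.2 FPKM in siHHEX (log2 change 0.75, adjusted p = 0.00612 from limma), and was the one called after the correction. *STK26*, the gene for MST4, went from 7.66 and 7.29 to 2.94, 5.36 and 3.35 FPKM (-0.83, adjusted p = 0.0145 from limma). *MAP4K3* went from 4.91 and 5.68 to 2.28, 3.44 and 2.41 FPKM (-0.77, adjusted p = 0.0123 from limma). In siYAP/TAZ 0 of the 11 were called, while *MAP4K4*, counted with the core, rose there.

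The STRIPAK complex carries the phosphatase that dephosphorylates MST1 and MST2. Of the 14 genes listed for it here, 7 fell and 1 rose in siHHEX, with a median of -0.50. Those that fell the most on the log2 scale were *PPP2R1B* (-0.97), *STRN3* (-0.80), *PPP2CA* (-0.79) and *PDCD10* (-0.77). The catalytic subunit *PPP2CA* went from 93.2 and 89.1 FPKM to 47.7, 62.1 and 48.3 FPKM (log2 change -0.79, adjusted p = 0.00842 from limma), while the scaffold subunit *PPP2R1A* rose from 80.7 and 82.7 to 103, 100 and 127 FPKM (0.41, adjusted p = 0.0332 from limma). After the correction *PPP2CB*, the other catalytic subunit, was the only one of this list called (-0.51, adjusted p = 0.0436 from limma). In siYAP/TAZ 0 of these 14 listed genes were called.

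Among 16 tested membrane and junction scaffolds upstream of LATS1 and LATS2, 7 fell and 4 rose in siHHEX. *PTPN14*, a phosphatase that binds YAP, went from 4.83 and 5.46 FPKM to 1.45, 2.50 and 1.70 FPKM (log2 change -1.11, adjusted p = 0.00638 from limma) and stayed called after the correction, with -0.94. *TJP1*, which encodes the tight junction protein ZO-1, went from 12.9 and 13.8 to 6.52, 7.74 and 6.26 FPKM (-0.88, adjusted p = 0.00492 from limma) and was also still called. *WWC2*, the paralog of *WWC1*, fell from 5.48 and 5.41 to 2.78, 3.42 and 2.62 FPKM (-0.72, adjusted p = 0.00777 from limma). *LIN7C*, of a polarity complex, had a log2 change of -0.68. Both calls were lost with the correction, at -0.40 for *WWC2* (limma adjusted p = 0.0548) and -0.15 for *LIN7C* (0.427). The polarity genes *SCRIB*, *LLGL1*, *LLGL2* and *CRB3* rose, with log2 changes from 0.39 to 0.66, and 0 of these 4 was called after the correction. In siYAP/TAZ *DLG5* alone was called without the correction, at 9.26 and 8.63 FPKM against 4.76 and 5.24 FPKM in siNC (0.73, adjusted p = 0.0183 from limma), and the correction added *PTPN14* (-0.82, limma adjusted p = 0.0288) and *WWC2* (-0.53, 0.0222).

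The LIM-domain proteins of the Ajuba family bind LATS1 and LATS2 and restrain them. *AJUBA* fell in both knockdowns, from 14.8 and 16.4 FPKM to 9.22, 9.85 and 9.99 FPKM in siHHEX (log2 change -0.63, adjusted p = 0.00853 from limma) and to 5.89 and 6.60 FPKM in siYAP/TAZ (-1.20, adjusted p = 0.00342 from limma). *WTIP* fell in siYAP/TAZ, to 1.21 and 1.16 FPKM from 3.21 and 3.33 FPKM (-0.97, adjusted p = 0.0182 from limma). Of the 15 tested RASSF and LIM-domain genes, 3 fell in siHHEX (*AJUBA*, *RASSF5* and *RASSF3*) and 2 in siYAP/TAZ. With the correction *AJUBA* and *RASSF5* stayed called in siHHEX and *RASSF3* did not (-0.13, limma adjusted p = 0.491). Of the 15 kinases and ligases that act on the turnover of YAP, TAZ or LATS, 6 fell and 1 rose in siHHEX. The ubiquitin ligase genes *ITCH* (-0.76) and *WWP1* (-0.58) and the cullin gene *CUL4A* (-0.59) were among those that fell, and their calls were lost with the correction, at -0.32 for *ITCH* (limma adjusted p = 0.144), -0.18 for *WWP1* (0.479) and -0.26 for *CUL4A* (0.323). The gene of this list still called in siHHEX was *NUAK2*, with -0.38 before (limma adjusted p = 0.037) and -0.62 after the correction (0.0309). *NUAK2*, a kinase that restrains LATS, was the only one of this list called in siYAP/TAZ (-0.53, adjusted p = 0.0394 from limma).

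Of the 7 NDR kinases and other MOBs, *STK38L* (-0.47) fell and *MOB2* (0.46) rose in siHHEX, and both calls ended with the GC and length correction, at 0.042 for *STK38L* (limma adjusted p = 0.863), where the sign turned, and at 0.043 for *MOB2* (0.88). *MOB4* was called in siYAP/TAZ. *MOB4* was at or below 0.0311 FPKM in 5 libraries and at 1.68, 2.91 and 2.04 FPKM in siHHEX 3, siYAP/TAZ 1 and siYAP/TAZ 2, so its value splits the siHHEX group and its call is uncertain. For comparison, of 7 tested YAP and TEAD target genes outside the core, 5 fell in siHHEX and 5 in siYAP/TAZ, and 5 were past 1.5-fold lower in siTEAD1/2/3/4. The 5 were *CTGF*, *CYR61*, *AXL*, *AMOTL2* and *CCND1* in each case, and *AREG* and *TGM2* were not called, with 284 and 2.02 FPKM in siTEAD1/2/3/4 against 224 and 208 and 1.44 and 1.83 FPKM in siNC. *AMOTL2* had 14.3 and 14.6 FPKM in siNC, 3.44 to 3.93 FPKM in siHHEX, 1.72 and 2.24 FPKM in siYAP/TAZ and 6.65 FPKM in siTEAD1/2/3/4. *SAV1* was lower in all 3 knockdowns like these 5, and *LATS2* was not lower in siTEAD1/2/3/4.

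**Figure D4:**
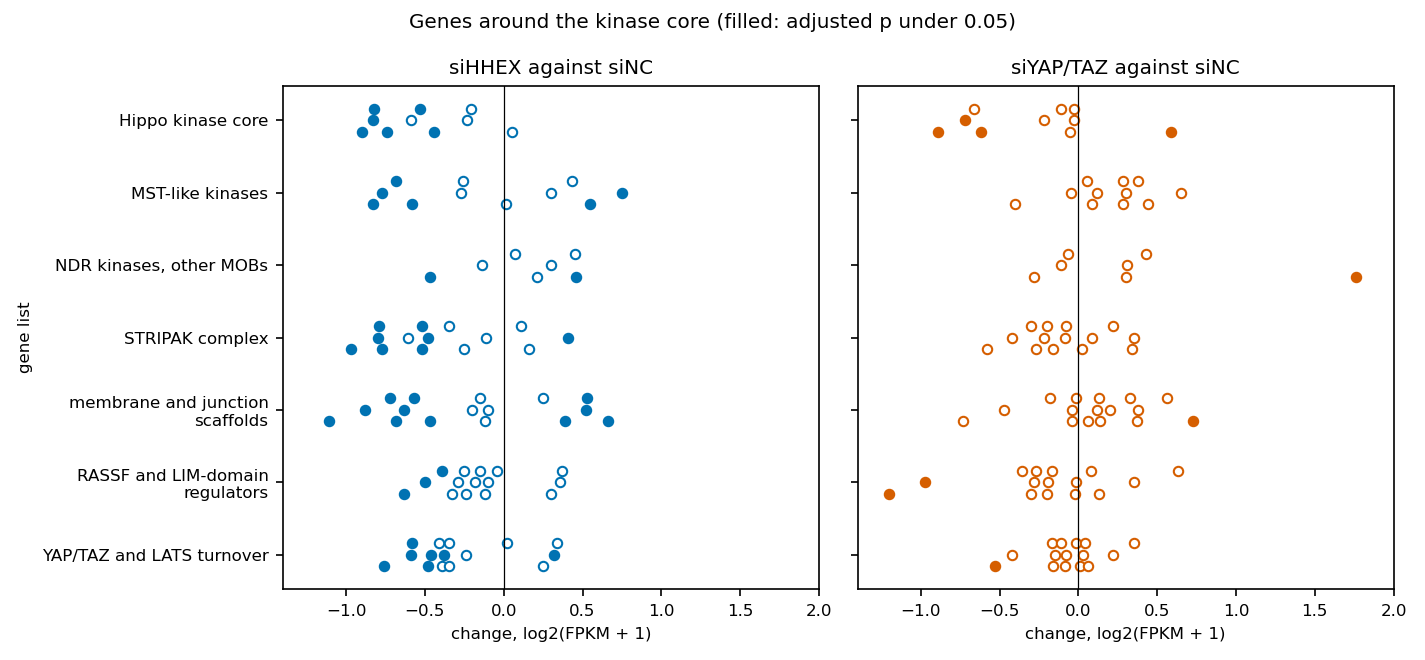
Change from siNC on the log2(FPKM + 1) scale (horizontal axes) of the tested genes of the kinase core and of 6 lists around it (rows), in siHHEX (left) and siYAP/TAZ (right); each point is a gene, filled where the adjusted p is below 0.05, and the vertical offset within a list only separates points. Filled points lie on both sides of 0 in most lists in siHHEX, 28 of 78 genes lower and 9 higher outside the core, and are few in siYAP/TAZ, where the point at 1.76 is *MOB4*.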

How the data were processed

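RNA of the 8 HCT116 libraries was extracted with Trizol and sequenced on an Illumina HiSeq instrument. For every gene the authors deposited its FPKM in each library. The submitters' processing notes name Trimmomatic 0.36, HISAT2 2.0.5, Cufflinks 2.2.1 and HTSeq 0.9.1. The genome build and the use of strand are not given in the sources used here. The study's methods name DESeq, which needs counts and was not used here. Columns of expression comparisons by the authors were not used.

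Groups and replicate numbers were taken from the labels. Genes that reached 1 FPKM in 2 or more libraries, 10677 in all, entered a limma 3.58.1 fit (R 4.3.3) of log2(FPKM + 1), with 4 groups, a trend of the variance on the mean and Benjamini-Hochberg adjustment. The single siTEAD1/2/3/4 library got no p, and a gene was counted when past 1.5-fold and outside the siNC values. For the correction, each library's deviation from the average library was regressed on natural splines (4 degrees of freedom) of GC content and of log length, known for 10614 tested genes (99.4%), and the fitted part was removed. Coordinates, GC content, exons and coding sequences came from GENCODE annotation of GRCh38, and start-site windows from RefSeq. On simulated data with 200 of 10677 genes changed by 2 on the log2 scale, 99% were called in siHHEX, 96% in siYAP/TAZ and 98% between them, with 15, 6 and 10 false calls. At a change of 1, 77%, 71.5% and 68% were called. The simulated noise was independent between genes and libraries and held no trend with GC content. These shares and false calls therefore do not cover the trend seen in the siHHEX libraries.

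The members, the lists and the tests were chosen with earlier results of these data known. All members and siRNA target genes were to be named, with at most 4 called genes of each list and comparison by absolute log2 change. *TAOK1*, *MAP4K2*, *PPP2R1A*, *PPP2CB*, *SCRIB*, *LLGL1*, *LLGL2* and *CRB3* fall outside this rule in siHHEX and were named after their values were seen, to account for a count. *NUAK2* also falls outside it in siHHEX, and *CTGF* in siHHEX and siYAP/TAZ. The 3 genes most like each member were those with the highest Pearson's r. Alternatives were another pseudocount, no filter, a fit limited to the groups in question, a block for the replicate number, median scaling, the correction with and without the block, the thresholds of the study, and leaving out each library. Other experiments of the study were not analysed here.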

Additional observations from a re-analysis of the deposited data

How the results depend on the processing

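Depth is unknown and groups have 2 or 3 libraries, so these counts rest on few libraries. Of the 10 members, 6 were called in siHHEX, 4 in siYAP/TAZ and 5 between them. Without the filter on low values these were 3, 2 and 2 (1907, 320 and 3367 genes in all). The thresholds of the study, 2-fold and unadjusted p below 0.05, set on log2(FPKM + 1) rather than on its DESeq fold changes, gave 0 members in each comparison (174, 168 and 162 genes). *LATS2* in siHHEX missed 2-fold only with the added 1 (-0.82, against -1.11 with a pseudocount of 0.1). In the groups compared alone, 1759 genes were called in siYAP/TAZ and 3 members between siHHEX and siYAP/TAZ. With GC and length correction 651, 1329 and 940 genes were called, with 2 members in siHHEX and 0 between siHHEX and siYAP/TAZ.

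The replicate numbers are shared, but same-numbered libraries did not deviate together (r = -0.0366, -0.0251 and -0.0434 between pairs of groups). With the replicate block, 2062 genes and 3 members were called in siHHEX and 2 members between siHHEX and siYAP/TAZ, and *SAV1* was 0.035 there. With the block and the correction together 155 genes and 1 member, *LATS2*, were called in siHHEX. Between siHHEX and siYAP/TAZ these were 274 genes and 0 members. In the siTEAD1/2/3/4 comparison, a pseudocount of 0.1 gave 1287 genes past 1.5-fold against 673.

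Leaving out each library in turn gave 19 to 4839 genes and 0 to 7 members in siHHEX, 15 to 877 genes and 0 to 3 members in siYAP/TAZ, 1026 to 5161 genes and 0 to 7 members between siHHEX and siYAP/TAZ, and 676 to 738 genes with 1 member in siTEAD1/2/3/4. Where it left 1 library in a group, that library was taken to vary like the other groups.

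The sign turned only for members that were not called in the comparison. In siHHEX this was *MOB1B* (0.037 with correction and block). In siYAP/TAZ it was *LATS1* without siNC 1 (0.035, leave-one-out range from -0.094), *STK3* without siNC 1 (0.002) and siYAP/TAZ 1 (0.036, range from -0.14), *STK4* without siNC 2 (0.021) and siYAP/TAZ 1 (0.028, range from -0.08), and *MOB1A* without siYAP/TAZ 2 (0.028, range from -0.47). Between siHHEX and siYAP/TAZ it was *LATS2* with median scaling (0.01) and without siYAP/TAZ 2 (0.023, range from -0.23), *SAV1* with median scaling (0.10), the correction with and without the block (0.26 in both), and without siHHEX 1 (0.036), siHHEX 3 (0.035) or siYAP/TAZ 1 (0.043, range from -0.10), *MOB1A* with correction and block (0.073), and *MOB1B* with the correction (0.057) and with the block added (0.15). In siTEAD1/2/3/4 it was *LATS2* with median scaling (-0.038) and the correction (-0.027), *STK3* with median scaling (-0.046) and without siNC 2 (-0.038), and *STK4* with the correction (0.025) and without siNC 2 (0.031), none of them past 1.5-fold. The causes were not tested.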
